A study of Homo sapiens with 12 samples.

Results

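The comparison of 10% with 5% CO2 under LPS covered 6 of the 12 libraries of the series, chosen by their titles. THP-1 is an established human monocytic leukaemia line, and all libraries came from THP-1 cells transduced with lentiviral particles that carry a non-target shRNA (shNT), so that this construct was shared by every group. The cells were kept for 4 h in a gas chamber in buffered medium at 5% CO2 (normocapnia) or 10% CO2 (buffered hypercapnia), and LPS at 2.5 µg/ml was present for the last 2 h. The 3 libraries of each group are called 5%-LPS and 10%-LPS replicates 1, 2 and 3, and values are given in that order. The 3 libraries at 5% CO2 and the 3 at 10% CO2 without LPS (resting libraries) entered the same model and serve as background. RNA was selected for poly(A) tails and read counts per gene were deposited. Of 57500 genes in the count tables, 16402 had enough counts to be tested. The labels do not say whether replicates were separate cultures. The p-values therefore describe the spread of these samples alone, and that spread may be technical.

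CO2 crosses cell membranes and is hydrated to carbonic acid, which dissociates into bicarbonate and a proton. Buffering holds the pH of the medium, so that the CO2 level is changed with less change in extracellular acidity. LPS, from the outer membrane of Gram-negative bacteria, binds CD14 and TLR4 on monocytes and switches on NF-κB, MAP kinases and interferon regulatory factors, which transcribe cytokine and chemokine genes within hours. Hypercapnia is known in medicine from lung disease and from mechanical ventilation with low tidal volumes.

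Total counts ranged from 20.19 to 21.6 M in the 5%-LPS libraries and from 18.45 to 22.15 M in the 10%-LPS libraries. By total counts, a count of 3 corresponded to 0.135 to 0.163 CPM (counts per 1e6 counts of a library) in these 6 libraries. Levels of genes are given as CPM after TMM scaling of the library size. All 12 monocyte markers checked were tested, with a summed level of 1379 to 1657 CPM in the 5%-LPS and 1225 to 1425 CPM in the 10%-LPS libraries, and 2 of the 12, CEBPA and CSF1R, were called lower. The largest part of that sum was SPI1 (526, 404 and 449 against 453, 392 and 383 CPM). CD14 was low, at 12.2, 6.36 and 6.69 against 8.16, 4.84 and 6.97 CPM. CD68 was lower still, at 1.5, 1.7 and 2.1 against 1.7, 2.03 and 1.6 CPM. The 6 erythroid markers had at most 3 counts in each of the 6 libraries, and the summed levels of the T cell, fibroblast and epithelial markers stayed at or under 4.94 CPM, with 3 of 10 T cell markers (CD3E, CD8B and CD2) and KRT19 at 3 counts or fewer. The one T cell marker that could be tested, TRAC, was called lower. The B cell list summed to 15.4 to 20.7 CPM at 5% and 14.7 to 17.9 CPM at 10% CO2, with MS4A1 and BLK at 3 counts or fewer. In these bulk libraries, a lower level per cell cannot be told apart from fewer cells that express a gene.

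At 10% CO2 under LPS, 703 genes rose (4.29% of the genes tested) and 732 fell (4.46%), together 1435 or 8.75%, at an adjusted p under 0.05 in edgeR's quasi-likelihood test. The changes were small: the median log2 change was 0.48 among genes that rose and -0.53 among genes that fell, and 129 genes changed at least 2-fold (65 up and 64 down). The smallest adjusted p of all belonged to SLC39A14, a plasma membrane importer of zinc and manganese, whose level lay at 59.7, 57.8 and 60.2 CPM in the 5%-LPS and 108, 109.8 and 106 CPM in the 10%-LPS libraries (log2 change 0.87 ± 0.09, adjusted p = 0.000167). Changes are given throughout on the log2 scale as 10% minus 5% CO2 ± the standard error, with the adjusted p of the same test, and levels as CPM of replicates 1, 2 and 3. For 97.7% of called genes the groups did not overlap. Among all tested genes, 16.2% had every 10%-LPS library above every 5%-LPS library and 15.2% had every one below.

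**Figure D1:**
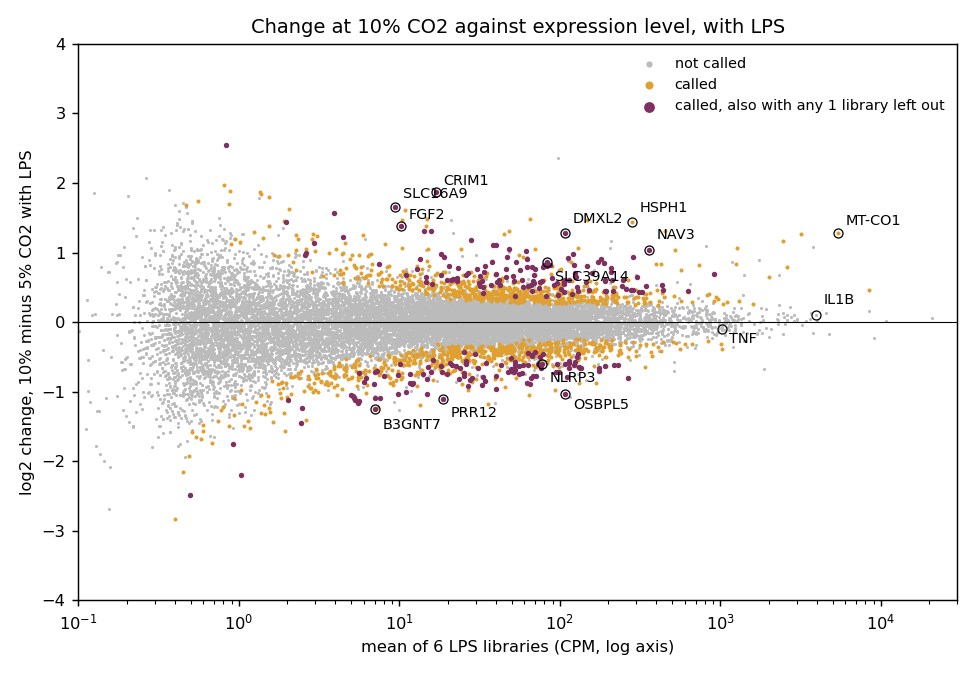
Each point is 1 of the tested genes, with its mean CPM over the 6 LPS libraries (log axis) against its log2 change at 10% minus 5% CO2; orange points were called and purple points were called also when any 1 library was left out. Most called genes lie within 1 log2 unit of 0, CRIM1 (1.88) and HSPH1 (1.44) are among the marked genes that rose, and TNF and IL1B lie near 0.

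The number of calls rested on single libraries. It was 271 without 10%-LPS replicate 2, 414 without 5%-LPS replicate 1 and 458 without 5%-LPS replicate 2, and 917 without 10%-LPS replicate 3. Of the genes that rose, 70.7% had their highest 10%-LPS level in replicate 2, and of those that fell, 73.2% had their lowest there. Calls that were kept whichever of the 12 libraries was left out numbered 241 (1.47% of tested genes, 129 higher and 112 lower); these are called stable below. Genes that rose had a median exon GC content of 43.1% and genes that fell 56.4%, against 48.7% over all tested genes. Removing the trend of counts with GC content within each library gave 1776 calls, of which 949 were higher, and kept 1115 of the 1435. DESeq2 called 1948. Scaling by library totals alone, with no TMM factor, gave 505 higher and 970 lower calls, a share of higher calls of 34.2% in place of 49.0%.

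Chaperones bind unfolded or newly made proteins: HSP70 (HSPA genes) and HSP90 work in cycles driven by ATP, HSP110 (HSPH1, HSPA4L) exchanges the nucleotide of HSP70, DNAJ proteins and co-chaperones deliver clients, and the ring-shaped chaperonins fold actin, tubulin and mitochondrial proteins. Many of their genes are targets of the heat shock factor HSF1, which binds inverted repeats of NGAAN. Of the 26 chaperone genes that rose, 22 had a promoter that could be searched. Only 3 of these 22 (13.6%) hold an element of 3 such repeats in the 250 bases before the transcription start, and the rest hold none. These 3 promoters are printed because they are the ones with the element. Capitals mark the letters GAA, TTC and GAA, each 2 bases apart, or the reverse complement (TTC, GAA and TTC at the same spacing), where overlapping elements run together; the sequences are written in the direction of transcription, from the RefSeq promoter table on GRCh38.p14. HSPA8, the constitutive HSP70 (chr11:123062137-123062386, minus strand), has 2 elements, CHORDC1, an HSP90 co-chaperone (chr11:90223050-90223299, minus strand), has 3 that overlap, and DNAJB6, a DNAJ protein that keeps aggregation-prone proteins soluble (chr7:157336754-157337003, plus strand), has 1.
HSPA8: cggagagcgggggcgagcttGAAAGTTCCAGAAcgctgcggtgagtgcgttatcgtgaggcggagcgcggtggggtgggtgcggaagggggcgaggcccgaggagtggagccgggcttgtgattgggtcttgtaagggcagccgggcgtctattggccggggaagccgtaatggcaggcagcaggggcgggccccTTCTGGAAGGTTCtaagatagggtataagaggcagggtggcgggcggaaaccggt
CHORDC1: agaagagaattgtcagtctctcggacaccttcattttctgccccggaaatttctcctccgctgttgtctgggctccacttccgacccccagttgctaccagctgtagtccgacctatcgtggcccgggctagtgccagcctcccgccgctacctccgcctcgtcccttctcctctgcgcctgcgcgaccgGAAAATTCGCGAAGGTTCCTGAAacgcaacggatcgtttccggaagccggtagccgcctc
DNAJB6: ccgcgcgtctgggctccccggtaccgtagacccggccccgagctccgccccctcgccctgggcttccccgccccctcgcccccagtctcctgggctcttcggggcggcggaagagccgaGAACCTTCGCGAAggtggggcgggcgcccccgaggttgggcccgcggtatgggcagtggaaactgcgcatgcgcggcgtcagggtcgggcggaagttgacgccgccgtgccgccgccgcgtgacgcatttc
Counted back from the start of transcription, the elements of HSPA8 lie at -230 to -218 and -55 to -43, those of CHORDC1 within -60 to -38 and that of DNAJB6 at -131 to -119. The element was found in 120 of 27305 promoters of the table (0.439%) and in 30 of 11523 promoters of tested genes (0.26%). It was in 7 of 545 promoters of genes that rose (1.28%), in 1 of 565 of genes that fell (0.177%), and in 4 of 82 promoters of the chaperone lists (4.88%). The fourth of these was HSPA6, an inducible HSP70 gene, which did not pass the test (log2 change 0.05 ± 0.43, 5.71, 2.38 and 1.97 against 4.43, 3.47 and 2.58 CPM). A match is a description of the letters and not of a bound site.

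Of 93 tested chaperone and co-chaperone genes (94 listed), 26 rose and 2 fell, with a median log2 change of 0.22 against -0.01 over all tested genes; 5 of the rises were stable. Counts of called list members, here and below, stand beside 4.29% of all tested genes that rose and 4.46% that fell. Those shares belong to the main fit. List counts with the GC correction stand beside 949 rises and 827 falls over all tested genes. Those without 10%-LPS replicate 2 stand beside 150 rises and 121 falls. Those without 5%-LPS replicate 1, 2 or 3 stand beside 197 and 217, 244 and 214, or 861 and 943. HSPH1 had the largest change, with 133, 113 and 211 CPM in the 5%-LPS and 365, 567 and 304 CPM in the 10%-LPS libraries (log2 change 1.44 ± 0.31, adjusted p = 0.0238). CHORDC1, named after its values were seen, went from 28.2, 21.2 and 34.3 to 66.6, 90.4 and 50.4 CPM (1.31 ± 0.28, adjusted p = 0.0224). In both genes the lowest 10%-LPS library, replicate 3, lay above the highest 5%-LPS library, replicate 3. HSPA4L rose by 1.27 ± 0.26 (adjusted p = 0.0149), from 20.4, 25.1 and 32.9 to 46.2, 87.1 and 55.8 CPM. The abundant HSPA8 lay at 1877, 1507 and 2317 CPM at 5% CO2 and at 3212, 4002 and 2636 CPM at 10% CO2 (0.79 ± 0.19, adjusted p = 0.0313). HSP90AA1, the inducible cytosolic HSP90, went from 1433, 1467 and 1778 to 2244, 3111 and 1965 CPM (0.65 ± 0.16, adjusted p = 0.0295). In 25 of the 26 genes that rose, 10%-LPS replicate 2 was the highest library of its group.

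The stable rises were in co-chaperones and chaperonins. FKBP4, an HSP90 co-chaperone of steroid receptors, read 25.4, 27.3 and 27.8 CPM at 5% and 43.8, 60.9 and 42.4 CPM at 10% CO2 (0.87 ± 0.14, adjusted p = 0.00193). AHSA1, which stimulates the HSP90 ATPase, read 81.6, 76.3 and 107 CPM against 144, 193 and 128 CPM (0.81 ± 0.15, adjusted p = 0.00525). The groups did not overlap in either gene, and the 5%-LPS libraries of FKBP4 differed by less than 3 CPM. HSPD1, the mitochondrial HSP60, rose by 0.69 ± 0.12 (adjusted p = 0.00347), from 629, 688 and 782 to 1045, 1350 and 986 CPM. CCT3 and CCT4, subunits of the cytosolic chaperonin, rose by 0.44 ± 0.08 and 0.43 ± 0.08 (adjusted p = 0.00451 and 0.00531). Of 16 tested chaperonin and prefoldin genes 10 rose, with a median of 0.31, namely 7 of the 8 subunits of the cytosolic chaperonin (TCP1, CCT2, CCT3, CCT4, CCT5, CCT6A and CCT7), both mitochondrial chaperonin genes and PFDN2. The count was 3 without 10%-LPS replicate 2.

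Among the HSP70, HSP90 and HSP110 genes 4 of 18 rose and none fell, and among the other co-chaperones 7 of 24 rose. The heat-inducible genes HSPA1A (15.8, 13.7 and 16.6 against 21.9, 36 and 18.4 CPM, 0.72 ± 0.23, adjusted p = 0.0661) and HSPA1B (49, 38.1 and 63.8 against 67.5, 97.9 and 58.6 CPM, 0.57 ± 0.22, adjusted p = 0.142) did not pass the test. They are near-identical copies, so that reads could be split between them. DNAJB1, the main partner of HSP70 in the heat shock response, had a log2 change of 0.43 ± 0.17 (adjusted p = 0.132), HSP90AB1 one of 0.22 ± 0.09 (adjusted p = 0.123) and HSF1 itself one of -0.14 ± 0.09 (adjusted p = 0.344). Of 35 DNAJ genes 5 rose and 2 fell: DNAJB6 went from 169, 157 and 179 to 222, 245 and 190.4 CPM (0.38 ± 0.09, adjusted p = 0.0183), and DNAJB12, of the endoplasmic reticulum, from 111, 93.5 and 96.5 to 81.2, 65.9 and 76.6 CPM (-0.43 ± 0.09, adjusted p = 0.00889). In the unfolded protein response of the endoplasmic reticulum 1 of 26 genes passed, the ubiquitin ligase SYVN1 (-0.36 ± 0.10, adjusted p = 0.0325), and in the proteasome 1 of 42, PSMA6 (0.29 ± 0.08, adjusted p = 0.0343).

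The count of chaperone genes that rose fell from 26 to 8, 9 and 7 without 5%-LPS replicate 1, 5%-LPS replicate 2 and 10%-LPS replicate 2, respectively. Calls were lost without 5%-LPS replicate 1 for HSPH1, HSPA4L, HSPA8, HSP90AA1, CHORDC1, DNAJB6, DNAJB12, SYVN1 and PSMA6, without 5%-LPS replicate 2 for HSPH1, HSPA4L, HSPA8, HSP90AA1, CHORDC1, DNAJB6, SYVN1 and PSMA6, without 5%-LPS replicate 3 for PSMA6, without 10%-LPS replicate 1 for HSPA8, SYVN1 and PSMA6, without 10%-LPS replicate 2 for HSPH1, HSPA8, HSP90AA1, CHORDC1, DNAJB6, DNAJB12, SYVN1 and PSMA6, without 10%-LPS replicate 3 for SYVN1, without resting 5% replicate 3 for HSPA8, and without resting 10% replicate 1 for HSPA8 and HSP90AA1 (adjusted p 0.0502 to 0.17). Calls were further lost with the GC correction for SYVN1 and PSMA6, with scaling by library totals for PSMA6, without the count filter for HSPH1, HSPA8, CHORDC1 and PSMA6, and with only the 6 LPS libraries in the fit for HSPH1, HSPA4L, HSPA8 and HSP90AA1 (adjusted p 0.0573 to 0.142).

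**Figure D2:**
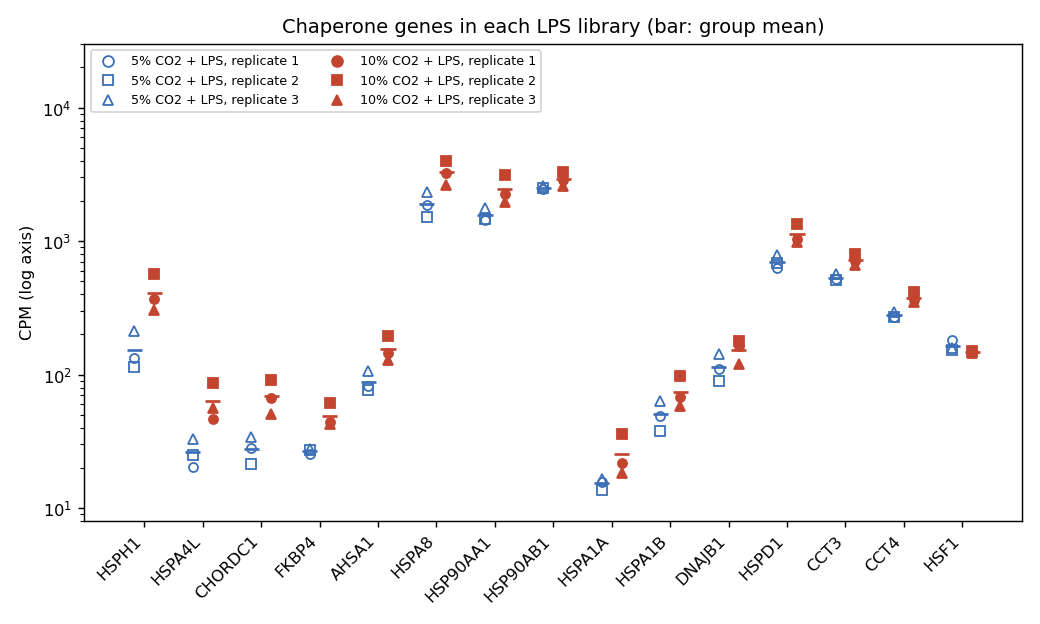
CPM on a log axis of 14 chaperone and co-chaperone genes and of HSF1 in each 5%-LPS library (open blue) and 10%-LPS library (filled red), 1 symbol shape per replicate number, with bars at the group means. The groups are separate for FKBP4, CCT3, CCT4, HSPH1, CHORDC1 and HSPA8 and overlap for HSPA1B and DNAJB1. In each of the genes named as separate, 10%-LPS replicate 2 (square) lies highest and 5%-LPS replicate 3 (triangle) is the nearest 5%-LPS library.

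The mitochondrial genome encodes 13 mRNAs for subunits of respiratory complexes I (ND genes), III (CYB), IV (CO genes) and V (ATP genes), cut from long transcripts of both strands. Together they made up 1.58%, 1.27% and 1.75% of counts in the 5%-LPS and 2.88%, 4.10% and 2.25% in the 10%-LPS libraries. The groups did not overlap, and the difference of 1.54 percentage points had an exact 2-sided permutation p of 0.1, the smallest that 3 against 3 libraries allow. The 94 listed chaperone genes took 1.74%, 1.73% and 1.93% against 2.17%, 2.52% and 2.08% of counts (difference 0.457 points, exact permutation p = 0.1). In both shares the 10%-LPS libraries had the same order, replicate 2, then 1, then 3.

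Of the 13 mRNAs 6 rose and none fell, with log2 changes from 0.16 to 1.30 and a median of 1.06. MT-CO1, the catalytic subunit of cytochrome c oxidase, lay at 3348, 2556 and 3578 CPM in the 5%-LPS and 7289, 10660 and 5049 CPM in the 10%-LPS libraries (1.28 ± 0.30, adjusted p = 0.0361). MT-ND5, a proton-pumping subunit of complex I, lay at 834, 721 and 919.6 CPM against 1571, 2230 and 1363 CPM (1.06 ± 0.20, adjusted p = 0.0125). Their groups did not overlap, and 10%-LPS replicate 2 was highest for all 13 mRNAs. MT-ND4L (1.30 ± 0.25, adjusted p = 0.0155), MT-ND4 (1.27 ± 0.29, adjusted p = 0.0302), MT-CO3 (1.17 ± 0.29, adjusted p = 0.0404) and MT-ND6 (1.03 ± 0.23, adjusted p = 0.0235) also rose. The other 7 did not pass, with changes of 1.10 for MT-ATP8 (adjusted p = 0.067), 1.07 for MT-ATP6 (0.0953), 0.68 for MT-CO2 (0.0902), 0.89 for MT-ND1 (0.108), 0.67 for MT-ND2 (0.125), 0.87 for MT-CYB (0.142) and 0.16 for MT-ND3 (0.377).

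No call among the 13 was stable. Calls ended without 5%-LPS replicate 1 or 2 for MT-ND4, MT-ND4L, MT-ND5, MT-ND6, MT-CO1 and MT-CO3, without 5%-LPS replicate 3, 10%-LPS replicate 1 or resting 5% replicate 1 for MT-CO1 and MT-CO3, without 10%-LPS replicate 2 for MT-ND4, MT-ND6, MT-CO1 and MT-CO3, and without resting 5% replicate 3 or resting 10% replicate 1 or 2 for MT-CO3 (adjusted p 0.0502 to 0.138). Calls were also lost without the count filter for MT-ND4, MT-ND6, MT-CO1 and MT-CO3, and with only the 6 LPS libraries in the fit for MT-ND4, MT-CO1 and MT-CO3 (adjusted p 0.0685 to 0.0969). MT-ND4L overlaps MT-ND4 and MT-ATP8 overlaps MT-ATP6, and MT-ND6 lies on the opposite strand; since no source used here gives the strand setting, the assignment of reads within these pairs is uncertain. Every mRNA was higher on average at 10% CO2 also in the resting libraries, where the summed share was 1.55% ± 0.339 at 5% and 2.63% ± 0.559 at 10% CO2 (SD, n = 3).

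**Figure D3:**
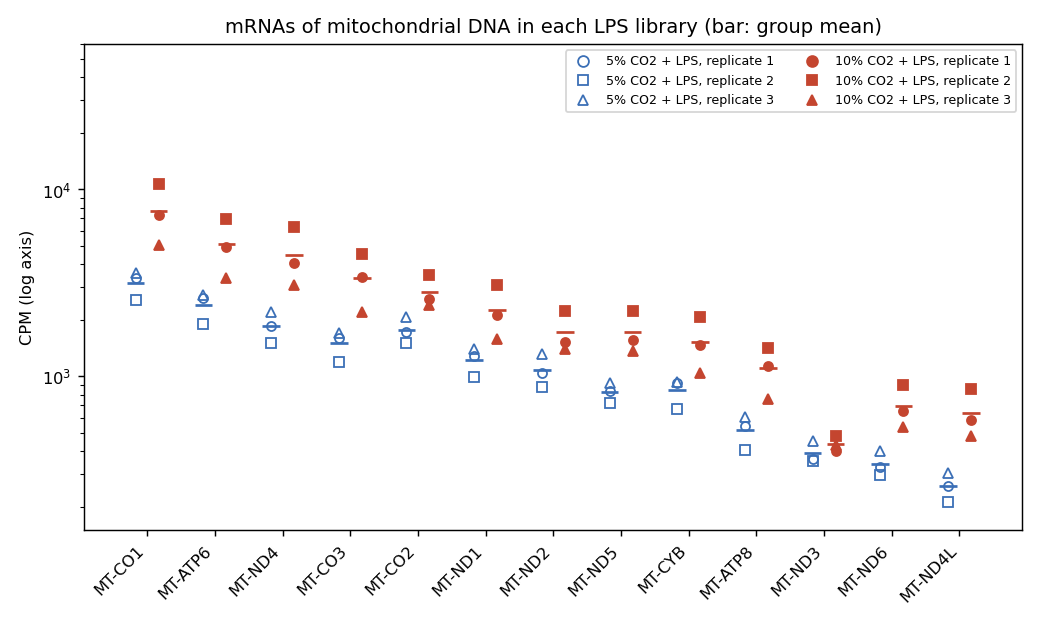
CPM on a log axis of the 13 mRNAs of mitochondrial DNA in each 5%-LPS library (open blue) and 10%-LPS library (filled red), with bars at the group means. The groups are apart for 12 of the 13 mRNAs and overlap for MT-ND3, and 10%-LPS replicate 2 is the highest library for each mRNA.

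Of 75 tested nuclear genes for subunits of the same complexes 2 rose and none fell (median 0.11): UQCRQ of complex III, from 46.8, 46.9 and 58.7 to 64.6, 68.8 and 67.2 CPM (0.40 ± 0.11, adjusted p = 0.0313), and NDUFB2 of complex I (0.34 ± 0.10, adjusted p = 0.045). With the GC correction 5 of the 75 rose. Over all tested genes, that correction gave 949 rises in place of 703. Of 27 import genes 4 rose, including TIMM21 (0.42 ± 0.11, adjusted p = 0.0271), a subunit of the inner membrane translocase, and GRPEL1 (0.31 ± 0.09, adjusted p = 0.0326), the nucleotide exchange factor of mitochondrial HSP70. Of 27 genes of the tricarboxylic acid cycle and its entry points 2 rose, among them IDH3A, a subunit of isocitrate dehydrogenase, by 0.35 ± 0.10 (adjusted p = 0.0326). Glycolysis had 1 rise and 1 fall among 24 genes (median -0.16): HK2, which phosphorylates glucose, 27.3, 25.3 and 21.3 against 40, 33 and 32.4 CPM (0.51 ± 0.15, adjusted p = 0.0365), and PFKFB4, which sets fructose 2,6-bisphosphate, 8.68, 9.36 and 7.38 against 5.08, 4.25 and 6.68 CPM (-0.65 ± 0.19, adjusted p = 0.0384). With 1 library left out, calls were lost without 5%-LPS replicate 1 or 2 or 10%-LPS replicate 2 for UQCRQ, NDUFB2, TIMM21, GRPEL1, IDH3A, HK2 and PFKFB4, without 5%-LPS replicate 3 for HK2, without 10%-LPS replicate 1 for UQCRQ, NDUFB2, GRPEL1, IDH3A, HK2 and PFKFB4, without 10%-LPS replicate 3 for UQCRQ, NDUFB2, IDH3A and HK2, and without resting 5% replicate 1 or 3 or resting 10% replicate 2 for NDUFB2 (adjusted p 0.0503 to 0.22). Under other settings they were lost with the GC correction for NDUFB2, TIMM21 and PFKFB4, with scaling by library totals for UQCRQ, NDUFB2, GRPEL1 and IDH3A, without the count filter for NDUFB2, GRPEL1 and IDH3A, and in limma-voom for NDUFB2 and PFKFB4 (adjusted p 0.0511 to 0.108).

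Genes that handle CO2, bicarbonate and protons directly showed 1 call, a rise, among 28 tested (median 0.06). Of all tested genes 4.29% rose and 4.46% fell. SLC4A7, the electroneutral sodium bicarbonate cotransporter NBCn1 (chr3:27372721-27484420 on GRCh38), brings bicarbonate into the cell. It lay at 9.97, 11.8 and 15 CPM in the 5%-LPS and 20.2, 28.6 and 23.8 CPM in the 10%-LPS libraries (0.98 ± 0.19, adjusted p = 0.0060), a stable rise with groups that did not overlap. None of the 6 tested carbonic anhydrases of the list, which interconvert CO2 and bicarbonate, passed, and the most abundant of them, CA2, lay at 2701 ± 202 CPM at 5% and 2833 ± 143 CPM at 10% CO2 (SD, n = 3; log2 change 0.07, adjusted p = 0.625). Of 11 tested monocarboxylate transporter genes 2 rose. SLC16A9, a carnitine transporter, was among the largest rises of all, from 3.01, 3.67 and 6.89 to 11.2, 17.9 and 14 CPM (1.66 ± 0.28, adjusted p = 0.00452, stable). SLC16A1, the lactate and pyruvate transporter MCT1, changed by 0.35 ± 0.09 (adjusted p = 0.0217), from 67.2, 78.2 and 77.4 to 92.4, 97.1 and 93.7 CPM.

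Zinc genes rose in 5 of 17 cases and fell in none (median 0.22). Besides SLC39A14 (chr8:22367249-22434129), its close relative SLC39A8, an importer of zinc and manganese that LPS induces, lay at 135, 140.2 and 181 CPM at 5% and 219.7, 255 and 213 CPM at 10% CO2 (0.59 ± 0.11, adjusted p = 0.00488). Both rises were stable. The other 3 were the metallothioneins MT1G and MT1X and the exporter SLC30A5. Of 24 amino acid transporters 1 rose, SLC7A2 for arginine and lysine (9.61, 11.5 and 9.64 against 16, 17.9 and 15.8 CPM, 0.69 ± 0.15, adjusted p = 0.0117), and 1 fell, SLC6A6 for taurine (59.7, 50.5 and 38.3 against 30.7, 14.3 and 20.5 CPM, -1.18 ± 0.28, adjusted p = 0.0307); with the GC correction 4 rose and 2 fell. Calls were lost without 5%-LPS replicate 1 or 10%-LPS replicate 2 for SLC16A1, SLC7A2 and SLC6A6, without 5%-LPS replicate 2, resting 5% replicate 2 or resting 10% replicate 3 for SLC6A6, and without 10%-LPS replicate 3 for SLC16A1 and SLC6A6 (adjusted p 0.0511 to 0.123). Calls were further lost without the count filter for SLC6A6, and with only the 6 LPS libraries in the fit for SLC6A6 (adjusted p 0.076 to 0.102).

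Several main early products of LPS stimulation did not pass the test for a difference between the CO2 levels. Other genes with far higher levels under LPS than at rest, such as CCL4, IL23A and PTX3, did pass and are given below. TNF lay at 1110, 1042 and 1007 CPM in the 5%-LPS and 1074, 953 and 919 CPM in the 10%-LPS libraries (-0.10 ± 0.23, adjusted p = 0.839), and the groups overlapped. IL1B lay at 4555, 3274 and 3518 CPM against 4695, 3908 and 3617 CPM (0.11 ± 0.15, adjusted p = 0.699). CXCL8, the neutrophil chemokine IL-8, lay at 4022, 3352 and 2900 CPM against 3740, 3467 and 3152 CPM (0.01 ± 0.18, adjusted p = 0.979). These 3 were induced in both arms, with resting means of 28.1, 19.2 and 15.9 CPM at 5% CO2. The changes of CCL3 (0.03 ± 0.11), PTGS2 (-0.01 ± 0.13), NFKBIA (-0.04 ± 0.10), TNFAIP3 (-0.15 ± 0.18), CXCL1 (0.39 ± 0.15) and the weakly expressed IL6 (0.52 ± 0.38) did not pass either (adjusted p = 0.129 to 0.966). A miss does not show that the levels were equal: the 95% interval that follows from the standard error and its degrees of freedom runs from -0.64 to 0.44 for TNF and from -0.23 to 0.44 for IL1B on the log2 scale. IL10 was below the filter.

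The cytokine genes that did pass were led by the subunits of IL-12 and IL-23, which direct T cell responses. IL12B, the p40 subunit shared by both, lay at 57.6, 52 and 63.3 CPM in the 5%-LPS and 98.3, 129.6 and 76.1 CPM in the 10%-LPS libraries (0.81 ± 0.16, adjusted p = 0.00895), a stable rise. IL23A, the p19 subunit of IL-23, lay at 275, 257 and 395 CPM against 428, 735 and 485 CPM (0.83 ± 0.20, adjusted p = 0.0313). Both genes were highest in 10%-LPS replicate 2, and neither had overlapping groups. TGFB1, an anti-inflammatory cytokine, fell by 0.42 ± 0.10 on the log2 scale (adjusted p = 0.0193), from 387, 313 and 322 to 282, 225 and 258 CPM. These 3 were all the calls among 21 genes of the TNF, IL-6, IL-10 and IL-12 groups (median 0.29). With the GC correction 4 rose and none fell.

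CCL4, a chemokine that attracts monocytes, lay at 692, 645 and 822 CPM at 5% and 949, 981 and 897 CPM at 10% CO2 (0.39 ± 0.11, adjusted p = 0.034) and was the single call among 11 CC chemokines (median 0.00); reads of its near-identical copy CCL4L2 could be counted with it. CCL20, a ligand of CCR6, went from 617, 438 and 522 to 793, 810.2 and 710.5 CPM with no overlap but did not pass (0.55 ± 0.16, adjusted p = 0.0508). None of 10 CXC chemokines passed, although 8 had a positive change and their median was 0.43: CXCL10, an interferon-induced ligand of CXCR3, lay at 89.6, 94.7 and 199.6 CPM at 5% and 193, 385 and 283 CPM at 10% CO2, with overlapping groups (1.16 ± 0.35, adjusted p = 0.0766). Without 5%-LPS replicate 3, 4 of the 10 passed as higher. In the IL-1 family 1 of 15 rose, the receptor chain IL18R1 (12.9, 4.5 and 12.2 against 25.7, 20.1 and 15.4 CPM, 1.05 ± 0.29, adjusted p = 0.0432). Calls ended for IL23A without 5%-LPS replicate 1 or 2, 10%-LPS replicate 2, resting 5% replicate 2 or resting 10% replicate 1, for CCL4 without 5%-LPS replicate 1 or 2 or 10%-LPS replicate 1, 2 or 3, for TGFB1 without 5%-LPS replicate 1 or 10%-LPS replicate 2 or 3, and for IL18R1 without 10%-LPS replicate 1 or 2, resting 5% replicate 1, 2 or 3 or resting 10% replicate 1, 2 or 3 (adjusted p 0.0516 to 0.149). Calls were also lost with the GC correction for TGFB1 and IL18R1, with scaling by library totals for CCL4, and with only the 6 LPS libraries in the fit for IL23A and IL18R1 (adjusted p 0.0538 to 0.183).

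In the chain from TLR4 to NF-κB, 3 of 23 genes rose and 1 fell (median -0.04). TRAF3, an adaptor that directs TLR4 signals to interferon genes and restrains non-canonical NF-κB, lay at 230, 184 and 231 CPM in the 5%-LPS and 319, 287 and 289 CPM in the 10%-LPS libraries (0.47 ± 0.09, adjusted p = 0.00571, stable). MAP3K8 (TPL2), the kinase that activates ERK after LPS, lay at 78.4, 61.6 and 112 CPM against 153, 233 and 144 CPM (1.07 ± 0.21, adjusted p = 0.0138). RIPK1, a kinase of TNF receptor and TLR3 and TLR4 complexes, fell by 0.47 ± 0.13 (adjusted p = 0.0264), from 24.7, 23.6 and 21.1 to 17.1, 16.5 and 16.3 CPM. In all 3 genes the groups did not overlap. Among TRAF, cIAP and RIPK genes (2 up and 2 down of 19), RIPK2, the kinase downstream of NOD1 and NOD2, rose by 0.56 ± 0.10 (adjusted p = 0.00416, stable), from 73.5, 73.8 and 85.7 to 104, 134 and 107 CPM. With the GC correction 4 of the 19 rose and 1 fell.

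NFKB1, the precursor of p50, was the single call among 11 NF-κB and IκB genes (811, 584 and 806 against 1074, 977 and 865 CPM, 0.41 ± 0.11, adjusted p = 0.0301), and with the GC correction 3 rose. Of 30 feedback brakes 1 rose and 2 fell (median -0.04), beside 4.29% and 4.46% of all tested genes. TNIP3, an LPS-induced partner of A20, rose stably by 0.81 ± 0.15 (adjusted p = 0.00367), from 30.1, 19.4 and 25.1 to 48.5, 46 and 36.7 CPM. ZFP36 (tristetraprolin), which marks AU-rich cytokine mRNAs for decay, fell by 0.51 ± 0.11 (adjusted p = 0.00833), from 152, 169 and 135 to 103, 111 and 106 CPM, and DUSP10, a phosphatase of p38 and JNK, by 0.47 ± 0.13 (adjusted p = 0.038), from 54.9, 46.2 and 41.1 to 40.2, 30 and 32.7 CPM. With 1 library left out, calls were lost without 5%-LPS replicate 1 for MAP3K8, RIPK1 and DUSP10, without 5%-LPS replicate 2 for RIPK1, NFKB1, ZFP36 and DUSP10, without 10%-LPS replicate 1 for RIPK1 and NFKB1, without 10%-LPS replicate 2 for RIPK1, NFKB1 and DUSP10, and without 10%-LPS replicate 3 for RIPK1 and DUSP10 (adjusted p 0.0522 to 0.21). Under other settings they were lost with only the 6 LPS libraries in the fit for MAP3K8 and NFKB1 (adjusted p 0.0953 to 0.0984).

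Of 15 genes of the inflammasome and NOD families 3 fell and none rose (median -0.03). NLRP3, the sensor that activates caspase-1, lay at 107, 96.3 and 75.3 CPM in the 5%-LPS and 66.5, 54.3 and 62.1 CPM in the 10%-LPS libraries (-0.61 ± 0.12, adjusted p = 0.00531). NOD1, which senses bacterial peptidoglycan, lay at 7.95, 8.94 and 6.79 CPM against 4.61, 4.01 and 4.87 CPM (-0.81 ± 0.15, adjusted p = 0.00496). Both falls were stable and the groups did not overlap; NLRP1 was the third. Of 50 interferon-stimulated genes 4 rose and 1 fell (median -0.01), and with the GC correction 2 rose and 4 fell. GBP5, a guanylate-binding protein that promotes NLRP3 assembly, read 62.2, 55.9 and 70.8 CPM at 5% and 78.2, 109 and 99.3 CPM at 10% CO2 (0.60 ± 0.13, adjusted p = 0.00895), and IFIH1, the RNA sensor MDA5, 31.9, 30.4 and 42.7 CPM against 46.5, 58.9 and 52.8 CPM (0.59 ± 0.14, adjusted p = 0.0159). Calls were lost without 5%-LPS replicate 1 for IFIH1, and without 5%-LPS replicate 2 or 10%-LPS replicate 2 for GBP5 and IFIH1 (adjusted p 0.0528 to 0.0932). Calls were further lost with the GC correction for GBP5 (adjusted p = 0.0626).

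Of 13 immunometabolic enzyme genes 4 rose and none fell (median 0.23). GCH1 makes the first intermediate of tetrahydrobiopterin, the cofactor of nitric oxide synthases, and lay at 95.3, 76.4 and 112 CPM in the 5%-LPS and 146, 181 and 137 CPM in the 10%-LPS libraries (0.71 ± 0.13, adjusted p = 0.00454). SPR, which catalyses the last step of the same pathway, lay at 12.9, 14 and 17.5 CPM against 22.2, 31 and 24.5 CPM (0.81 ± 0.15, adjusted p = 0.00406). Both rises were stable; KYNU and ODC1 made up the 4. In prostaglandin and leukotriene synthesis 1 of 14 rose and 1 fell: PLA2G4A, which releases arachidonic acid, from 6.24, 6.0 and 7.92 to 12.5, 17.5 and 12.4 CPM (1.07 ± 0.24, adjusted p = 0.0134), and ALOX5, which starts leukotriene synthesis, from 94.9, 83.4 and 84.9 to 73.8, 51.7 and 64.5 CPM (-0.47 ± 0.12, adjusted p = 0.0217). PTX3, a secreted pentraxin that opsonizes microbes, was among the most abundant called genes, with 765, 731 and 1203 against 1455, 1841 and 1508 CPM (0.83 ± 0.18, adjusted p = 0.0186).

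Surface and growth factor genes included larger changes. SLAMF7, a receptor on activated macrophages, rose from 8.68, 4.6 and 11.2 to 17.6, 27.3 and 15.8 CPM (1.30 ± 0.25, adjusted p = 0.00716, stable), and CD44, the hyaluronan receptor, from 254, 203 and 249 to 392, 408 and 302 CPM (0.64 ± 0.13, adjusted p = 0.00831, stable); 3 of 18 genes of costimulation and adhesion rose and none fell. Of 17 growth factor genes 4 rose and none fell (median 0.01). Their log2 changes ran from -1.65, which did not pass, to 1.49, and 9 of the 17 were positive. FGF2, a mitogen of fibroblasts and endothelium, lay at 5.04, 4.65 and 7.23 CPM at 5% and 13.7, 17.3 and 13.2 CPM at 10% CO2 (1.38 ± 0.22, adjusted p = 0.00181, stable). VEGFC, a lymphatic growth factor, lay at 6.49, 3.67 and 13 CPM against 18.8, 26.7 and 19.9 CPM (1.49 ± 0.34, adjusted p = 0.0226). PDGFA rose by 0.64 ± 0.13 (adjusted p = 0.00671). Calls ended without 5%-LPS replicate 1 for PLA2G4A, ALOX5, PTX3 and VEGFC, without 5%-LPS replicate 2 for PLA2G4A, ALOX5 and PTX3, without 10%-LPS replicate 2 for PLA2G4A, ALOX5, PTX3, VEGFC and PDGFA, and without 10%-LPS replicate 3 for ALOX5 (adjusted p 0.055 to 0.153). Calls were also lost with only the 6 LPS libraries in the fit for PTX3, SLAMF7 and VEGFC (adjusted p 0.0792 to 0.107).

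Further rises were found among genes of serine and folate metabolism and of tRNA charging. Of 22 tested serine and one-carbon genes 6 rose and 2 fell (median 0.24), with 9 up and 1 down after the GC correction. PSPH, the last enzyme of serine synthesis, lay at 16.2, 16.4 and 17 CPM in the 5%-LPS and 24.5, 24.7 and 26.3 CPM in the 10%-LPS libraries (0.61 ± 0.10, adjusted p = 0.00181), with at most 2 CPM between libraries of a group. GART, of purine synthesis, lay at 78.9, 93.7 and 98 CPM against 134, 148 and 132 CPM (0.61 ± 0.10, adjusted p = 0.00181). PSAT1, the step before PSPH, rose by 0.51 ± 0.09 (adjusted p = 0.00337), and MTRR, which reactivates methionine synthase, by 0.48 ± 0.09 (adjusted p = 0.00346). All 4 rises were stable. SHMT1 was among the 2 that fell, and PHGDH, the first enzyme of serine synthesis, did not pass (0.30, adjusted p = 0.0804).

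Of 37 aminoacyl-tRNA synthetases, which load tRNAs with amino acids, 9 rose and none fell (median 0.17). LARS1 for leucine lay at 242, 235 and 250 CPM at 5% and 330.2, 350.4 and 316 CPM at 10% CO2 (0.45 ± 0.08, adjusted p = 0.00407). NARS1 for asparagine rose by 0.46 ± 0.09 (adjusted p = 0.00623) and IARS1 for isoleucine by 0.43 ± 0.09 (adjusted p = 0.0074). These 3 were the stable rises, and 3 of the 37 genes rose without 5%-LPS replicate 1. Synthetase and serine genes are known targets of ATF4 in the integrated stress response. Of 21 core genes of that response 3 rose and 1 fell (median -0.09): STC2, a secreted glycoprotein, 18.2, 20.7 and 18.9 against 27, 23 and 32.9 CPM (0.52 ± 0.14, adjusted p = 0.0265), and ASNS, asparagine synthetase, 90.6, 94.1 and 111 against 114, 129 and 132 CPM (0.35 ± 0.10, adjusted p = 0.0363), were among the rises. Only 6 of the 21 genes had a positive change. With scaling by library totals none of the 21 rose and 1 fell. The element TGATGNAA was searched on both strands as the letters shared by ATF4-C/EBP sites. It was in 3 of 30 synthetase promoters (10%) and in 1 of 17 promoters of the serine and one-carbon list (5.88%). Over all 27305 promoters searched its share was 3.19%, and over promoters of tested genes it was 1.47%. A difference between these shares was not tested. With 1 library left out, calls were lost for STC2 without 5%-LPS replicate 1, 2 or 3 or 10%-LPS replicate 3, and for ASNS without 5%-LPS replicate 1 or 2, 10%-LPS replicate 2 or 3 or resting 10% replicate 2 (adjusted p 0.0501 to 0.167). Under other settings they were lost with the GC correction for ASNS, and with scaling by library totals for STC2 and ASNS (adjusted p 0.0507 to 0.0772).

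Genes of ribosome assembly gave rises, and ribosomal protein genes gave no call. Of 75 genes of ribosomal RNA processing and assembly 16 rose and none fell (median 0.20, 70 of 75 above 0); 25 rose with the GC correction and 3 without 10%-LPS replicate 2. DDX10, an RNA helicase of small subunit assembly, lay at 42.8, 35.9 and 39.4 CPM in the 5%-LPS and 63.2, 65.2 and 59.4 CPM in the 10%-LPS libraries (0.67 ± 0.11, adjusted p = 0.00214). WDR36, of the small subunit processome, lay at 53, 53.4 and 55.8 CPM against 76.6, 85.6 and 81.9 CPM (0.59 ± 0.11, adjusted p = 0.00384). WDR3, another of its proteins, rose by 0.41 ± 0.08 (adjusted p = 0.00656), and all 3 were stable. POLR1A, the largest subunit of RNA polymerase I, rose from 77.8, 96.7 and 84 to 137, 130.3 and 124 CPM (0.60 ± 0.11, adjusted p = 0.00477, stable). The polymerase III gene POLR3G rose by 0.98 ± 0.20 (adjusted p = 0.00713), and MAF1, the repressor of polymerase III, fell by 0.43 ± 0.09 (adjusted p = 0.0082), among 6 rises and 3 falls in 34 genes of the 2 polymerases. Calls were lost without 5%-LPS replicate 1 for MAF1, and without 10%-LPS replicate 2 for POLR3G and MAF1 (adjusted p 0.0518 to 0.061). None of 78 cytosolic ribosomal protein genes passed (median 0.08; log2 change 0.05 ± 0.08 for RPL8 and 0.10 ± 0.07 for RPS6); with the GC correction 4 rose.

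Of 28 genes of cholesterol synthesis and its regulator SREBP2, 5 fell and 1 rose (median -0.15), with 9 falls and 3 rises after the GC correction. DHCR7, the last enzyme of cholesterol synthesis, lay at 62.2, 66 and 60.2 CPM in the 5%-LPS and 37.8, 32.4 and 47.1 CPM in the 10%-LPS libraries (-0.68 ± 0.13, adjusted p = 0.00416). IDI1, which makes the isoprenoid building block dimethylallyl diphosphate, lay at 71.4, 85.1 and 77.8 CPM against 52.4, 55.5 and 59.4 CPM (-0.49 ± 0.09, adjusted p = 0.00497). Both falls were stable; INSIG1 and SREBF1 also fell, and the 1 rise was the sterol carrier STARD4. SREBF1, which drives fatty acid synthesis and is also a target of LXR, fell by 0.62 ± 0.14 (adjusted p = 0.0155), from 118, 125 and 106 to 77.6, 65.2 and 84.1 CPM. Among 21 LXR targets and lipid synthesis genes 2 fell and 1 rose, ACSL1, which activates fatty acids and is induced by LPS, from 629.6, 395 and 565 to 1059, 978 and 783 CPM (0.83 ± 0.19, adjusted p = 0.0259). Calls ended without 5%-LPS replicate 1 or 2 for SREBF1, without 10%-LPS replicate 1 for ACSL1, and without 10%-LPS replicate 2 for SREBF1, STARD4 and ACSL1 (adjusted p 0.0608 to 0.10). Calls were also lost with only the 6 LPS libraries in the fit for ACSL1 (adjusted p = 0.0591).

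Of 42 lysosome, autophagy and V-ATPase genes 2 fell, both stably, and none rose (median -0.09). That count is near the 4.46% of all tested genes that fell. ULK1, the kinase that starts autophagy, lay at 54.9, 50.6 and 51.4 CPM at 5% and 34.8, 31.9 and 35.1 CPM at 10% CO2 (-0.62 ± 0.10, adjusted p = 0.00176). GABARAPL1, a protein of the autophagosome membrane, lay at 11.3, 8.06 and 7.82 CPM against 5.97, 4.48 and 4.29 CPM (-0.89 ± 0.18, adjusted p = 0.00621). The levels of both groups were apart in each gene. In the hypoxia list 3 of 19 genes fell and none rose (median -0.22; 5 falls with the GC correction): ZNF395 changed from 37.2, 43.2 and 29 to 23.8, 13.6 and 22.8 CPM (-0.86 ± 0.18, adjusted p = 0.0108) and KDM4B, a histone demethylase, from 55, 63.5 and 46.7 to 42.2, 32.5 and 40.9 CPM (-0.51 ± 0.12, adjusted p = 0.017). With 1 library left out, calls were lost for ZNF395 without 5%-LPS replicate 2, and for KDM4B without 5%-LPS replicate 1 or 2 or 10%-LPS replicate 2 (adjusted p 0.0526 to 0.124). Under other settings they were lost with only the 6 LPS libraries in the fit for ZNF395 (adjusted p = 0.0691).

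Myeloid regulators fell in 4 of 32 cases and rose in none (median -0.16; 6 falls with the GC correction). CEBPA, a master factor of the myeloid lineage, lay at 185, 206 and 119.9 CPM in the 5%-LPS and 100.5, 90.2 and 86.3 CPM in the 10%-LPS libraries (-0.88 ± 0.18, adjusted p = 0.0145). IRF5, which drives inflammatory cytokine genes, fell by 0.40 ± 0.10 (adjusted p = 0.0187), and CSF1R and IRF4 were the other falls. In the MYC network 3 of 12 genes fell and none rose (median -0.22): MXD4, an antagonist of MYC, from 65.4, 67.3 and 61.8 to 41.2, 39 and 40 CPM (-0.69 ± 0.10, adjusted p = 0.00101, stable), MYC itself from 52.3, 39.4 and 48.2 to 37, 32.8 and 35 CPM (-0.42 ± 0.10, adjusted p = 0.0195), and MLXIPL, a glucose-sensing factor, by 0.80 ± 0.22 (adjusted p = 0.0312). MYC was also the single call among 28 AP-1, EGR and NR4A early genes (median -0.23). Calls were lost without 5%-LPS replicate 1 or 10%-LPS replicate 2 for CEBPA, IRF5, MYC and MLXIPL, without 5%-LPS replicate 2 for IRF5, and without 10%-LPS replicate 3 for MYC and MLXIPL (adjusted p 0.0547 to 0.183). Calls were further lost in limma-voom for MLXIPL (adjusted p = 0.0561).

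PLK2, a kinase among p53 targets, fell stably from 74.9, 80.2 and 62.8 to 50.1, 38.2 and 42.1 CPM (-0.74 ± 0.12, adjusted p = 0.00181); of the other 23 genes of that list SESN1 rose by 0.36 ± 0.09 (adjusted p = 0.0186) and CCNG1 fell by 0.40 ± 0.12 (adjusted p = 0.0415). In the BCL2 family BIK fell by 0.64 ± 0.14 (adjusted p = 0.0115) and BCL2L11 rose by 0.44 ± 0.13 (adjusted p = 0.045), both promoters of cell death, among 15 genes. Of 42 genes of replication and mitosis 2 rose and 1 fell (median -0.12), beside 4.29% rises and 4.46% falls over all tested genes. CDK1 changed by 0.37 ± 0.11 (adjusted p = 0.0341) and CCNE2 by 0.42 ± 0.13 (adjusted p = 0.0434), and none rose with the GC correction. None of 25 NRF2 and redox genes passed (median -0.03); the ferritins FTL and FTH1 changed by -0.05 ± 0.11 and 0.03 ± 0.18. Calls ended without 5%-LPS replicate 1 or 10%-LPS replicate 3 for SESN1, CCNG1, BCL2L11, CDK1 and CCNE2, without 5%-LPS replicate 2 or 10%-LPS replicate 2 for SESN1, CCNG1, BIK, BCL2L11, CDK1 and CCNE2, without resting 5% replicate 1 for CCNE2, without resting 5% replicate 2 or resting 10% replicate 1 or 3 for BCL2L11, without resting 5% replicate 3 for CCNG1, and without resting 10% replicate 2 for CCNG1, BCL2L11 and CCNE2 (adjusted p 0.0514 to 0.249). Calls were also lost with the GC correction for BCL2L11, CDK1 and CCNE2, with scaling by library totals for BCL2L11, CDK1 and CCNE2, without the count filter for SESN1, and with only the 6 LPS libraries in the fit for BCL2L11 and CCNE2 (adjusted p 0.0545 to 0.177).

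**Figure D4:**
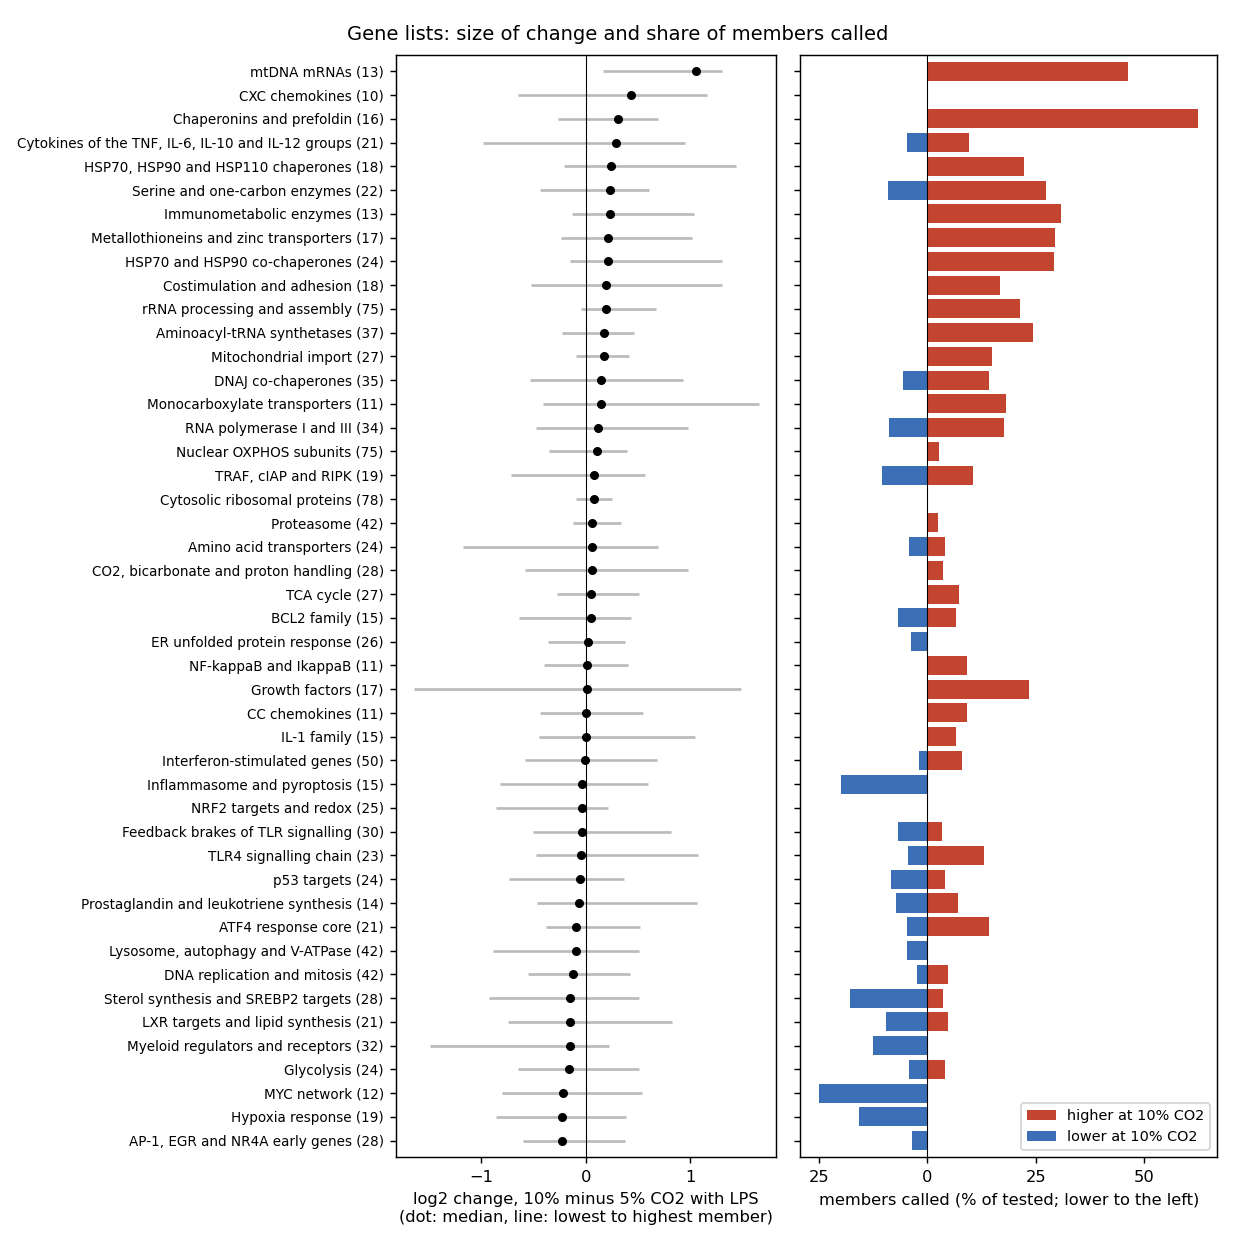
For each of 46 gene lists, with the number of tested members in brackets, the left panel gives the median (dot) and range (line) of the members' log2 change at 10% minus 5% CO2 with LPS, and the right panel the percent of tested members called higher (right, red) or lower (left, blue). The mRNAs of mitochondrial DNA have the highest median (1.06) and chaperonins the largest share of called members, while the AP-1, hypoxia and MYC lists have the lowest medians. Over all tested genes 4.29% were called higher and 4.46% lower. Lists share some genes, and the members were chosen with earlier results of these data known.

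The largest stable rises among genes with at least 5 CPM were, besides SLC16A9, FGF2 and SLAMF7, found in genes with varied roles. CRIM1, a membrane protein that binds growth factors of the BMP family, had the largest change, from 6.03, 4.39 and 11.1 to 25.4, 34.8 and 19.2 CPM (1.88 ± 0.28, adjusted p = 0.00314). MEOX2, a homeobox factor, went from 7.58, 6.25 and 13.2 to 15.7, 29 and 22.4 CPM (1.31 ± 0.25, adjusted p = 0.0082). In both genes 5%-LPS replicate 3 was the highest 5%-LPS library, and MEOX2 did not pass with only the 6 LPS libraries in the fit (adjusted p = 0.0716). DMXL2, a regulator of V-ATPase assembly, lay at 63.3, 50.5 and 73.7 CPM in the 5%-LPS and 139, 179 and 137 CPM in the 10%-LPS libraries (1.28 ± 0.14, adjusted p = 0.00024). NAV3, a microtubule-associated protein, lay at 236, 198 and 267 CPM against 508, 514 and 419 CPM (1.04 ± 0.11, adjusted p = 0.00024). FNIP2, a partner of folliculin in nutrient sensing, lay at 18.5, 13.2 and 19.7 CPM against 39.7, 44.7 and 32.8 CPM (1.19 ± 0.15, adjusted p = 0.000508). These 3 genes had a lowest 10%-LPS library at least 1.5 times the highest 5%-LPS library. The relaxin receptor RXFP1 (1.11 ± 0.21), the sialyltransferase ST6GAL1 (1.10 ± 0.16), PM20D2 (1.01 ± 0.16) and the mitochondrial tRNA gene MT-TY (1.05 ± 0.19) completed the 12 (adjusted p = 0.00171 to 0.00746). MT-TY lies opposite and next to MT-CO1, and without a known strand setting its reads may belong to that region.

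The 12 largest stable falls ranged from -1.24 to -1.03 on the log2 scale. B3GNT7, an enzyme of keratan sulphate and poly-lactosamine chains, lay at 10.7, 11.1 and 8.21 CPM in the 5%-LPS and 3.9, 2.45 and 6.06 CPM in the 10%-LPS libraries (-1.24 ± 0.24, adjusted p = 0.0081). OCLN, the tight junction protein occludin, lay at 7.58, 8.06 and 7.43 CPM against 4.67, 2.33 and 3.53 CPM (-1.13 ± 0.19, adjusted p = 0.00314). PRR12, a nuclear protein, lay at 23.1, 31.7 and 21.6 CPM against 12.1, 10.7 and 12.5 CPM (-1.11 ± 0.15, adjusted p = 0.00089). OSBPL5, a lipid transfer protein of membrane contact sites, was the most abundant of the 12, with 151, 162 and 123 against 82.9, 53.7 and 76.3 CPM (-1.03 ± 0.17, adjusted p = 0.00525). In each of these 4 genes the highest 10%-LPS library lay below the lowest 5%-LPS library. The others were ATOSB (-1.16 ± 0.20), the microtubule minus-end protein CAMSAP3 (-1.12 ± 0.17), the transcription factors RFX8 (-1.10 ± 0.19) and TEAD3 (-1.10 ± 0.16), the neurotrophic factor ARTN (-1.09 ± 0.22), SPSB1 (-1.06 ± 0.19), ARHGEF16 (-1.04 ± 0.16) and the G protein regulator RGS14 (-1.03 ± 0.17), with adjusted p = 0.0015 to 0.00659. The 10 most abundant called genes, by contrast, all rose: besides HSPA8, HSP90AA1, PTX3 and MT mRNAs they held the RNA-binding protein HNRNPU (0.26 ± 0.08), the lysophospholipid transporter MFSD2A (0.30 ± 0.09) and NCOA7 (0.29 ± 0.09; adjusted p = 0.0404 to 0.045). With 1 library left out, calls were lost without 5%-LPS replicate 1 or 2, 10%-LPS replicate 1, 2 or 3 or resting 5% replicate 1 for HNRNPU, MFSD2A and NCOA7, without 5%-LPS replicate 3 for NCOA7, without resting 5% replicate 2 for HNRNPU, and without resting 10% replicate 2 for HNRNPU and NCOA7 (adjusted p 0.0502 to 0.229). Under other settings they were lost with the GC correction for HNRNPU, with scaling by library totals for HNRNPU, MFSD2A and NCOA7, and without the count filter for HNRNPU (adjusted p 0.0645 to 0.219).

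Without LPS, 240 genes were called between 10% and 5% CO2 (1.46% of tested genes; 131 higher, 0.799%, and 109 lower, 0.665%). Of the genes that rose with LPS, 87.5% had a positive change at rest (median 0.26), and of those that fell 94.5% had a negative one (median -0.27). Both comparisons called 157 genes in the same direction, which were 10.9% of the calls with LPS and 65.4% of those at rest, and 1 gene, HIVEP2, in opposite directions. Over all tested genes the log2 changes with and without LPS had a Pearson correlation of 0.39 across genes, which are not independent replicates. SLC39A14 passed at rest as well (0.67 ± 0.09, adjusted p = 0.00856), as did FKBP4 (0.67 ± 0.14, adjusted p = 0.0239), PSPH (0.45 ± 0.09, adjusted p = 0.0222), PSAT1 (0.51 ± 0.09, adjusted p = 0.018) and RFX8 (-1.15 ± 0.18, adjusted p = 0.0124). The resting count was 0 without resting 10% replicate 2, 1 without resting 5% replicate 1, 4 without resting 5% replicate 2, 139 without resting 5% replicate 3, 143 without 10%-LPS replicate 3 and 511 without resting 10% replicate 1. Fewer calls at rest do not show a smaller effect there; that difference was tested gene by gene as the interaction.

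The interaction, the CO2 effect with LPS minus the CO2 effect without it, was called for 4 genes (0.0244% of tested genes), all higher, with 989 genes at an unadjusted p under 0.05 in edgeR; DESeq2 called 55. HIVEP2 (chr6:142751467-142945201 on GRCh38), a zinc finger protein that binds NF-κB-like sites, lay at 40.3, 41.5 and 43.4 CPM at 5% CO2 at rest and 33.2, 27.2 and 30.4 CPM at 10% CO2 at rest. With LPS it lay at 121, 102 and 139 CPM against 198, 195 and 198 CPM, so that its level fell at rest (-0.46 ± 0.10, adjusted p = 0.0349) and rose with LPS (0.71 ± 0.10, adjusted p = 0.000972). Its interaction was 1.17 ± 0.14 (adjusted p = 0.00255) and passed in each of the 12 fits that left out 1 library (adjusted p at most 0.0189). For PDGFA the resting libraries read 6.1, 4.91 and 5.25 CPM at 5% and 3.28, 3.09 and 3.67 CPM at 10% CO2, and the LPS libraries 30.4, 30.6 and 41.9 CPM against 47.4, 61.1 and 51.6 CPM (interaction 1.33 ± 0.22, adjusted p = 0.046).

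CD44 and STARD4 had the same pattern. CD44 read 131, 111 and 102 CPM at 5% and 92.8, 75.5 and 71.4 CPM at 10% CO2 at rest (interaction 1.17 ± 0.19, adjusted p = 0.046), and with LPS every 10% library lay above every 5% library as given above. STARD4 read 19.7, 17.9 and 19.8 CPM against 14.3, 14.1 and 14.7 CPM at rest and 63, 64.2 and 72.7 CPM against 83.4, 111 and 89.4 CPM with LPS (interaction 0.92 ± 0.15, adjusted p = 0.046). At rest each of these 3 genes had all 10% libraries below all 5% libraries, with changes that did not pass (-0.70, -0.53 and -0.41, adjusted p = 0.0513, 0.0591 and 0.0754). Their interactions each passed in 3 of the 12 fits that left out 1 library. For STARD4 and PDGFA these were the fits without 5%-LPS replicate 3, 10%-LPS replicate 1 or resting 10% replicate 1, and for CD44 those without 5%-LPS replicate 3, 10%-LPS replicate 3 or resting 10% replicate 1. CDK6, a cell cycle kinase, was next (0.46 ± 0.10 with LPS and -0.31 at rest, adjusted p of the interaction = 0.0668) and did not pass. Chaperone genes, mRNAs of mitochondrial DNA and synthetases had no called interaction, and their medians at rest were 0.11, 0.68 and 0.18, beside 0.22, 1.06 and 0.17 with LPS.

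**Figure D5:**
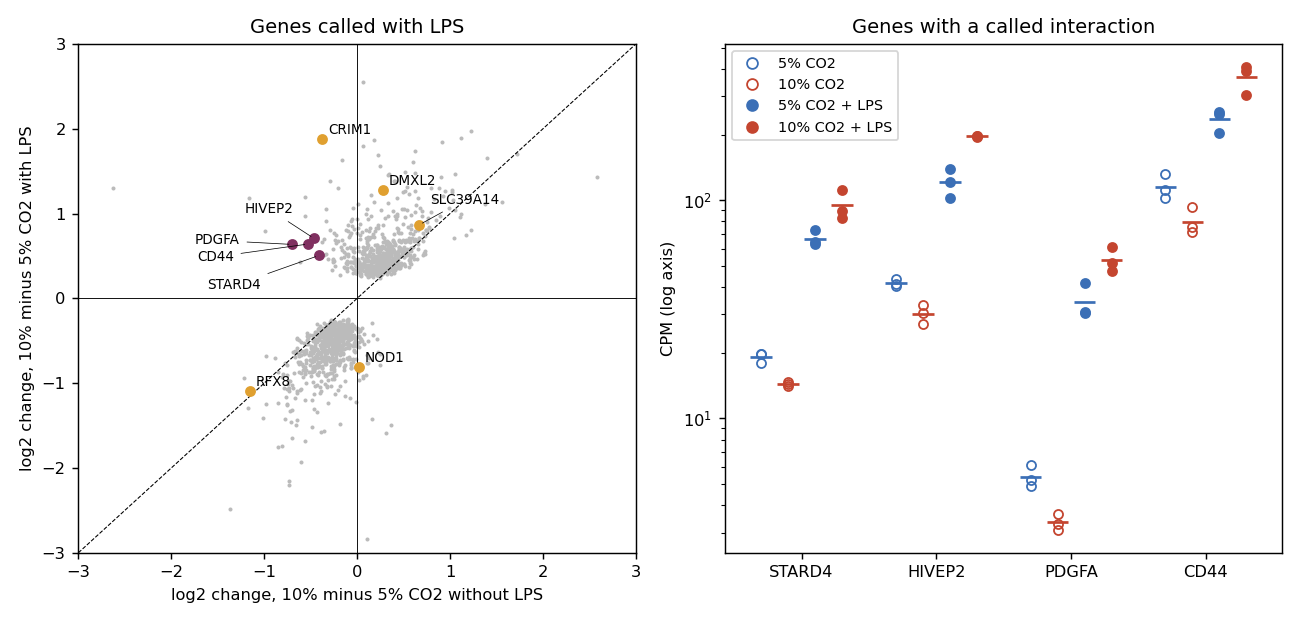
The left panel plots, for the genes called with LPS, the log2 change at 10% minus 5% CO2 with LPS against that without LPS, with a dashed line of equal change; the right panel gives the CPM (log axis) of the 4 genes with a called interaction in every library, with bars at the group means. Most called genes lie in the quadrants of equal sign, and the 4 marked purple genes lie below 0 without LPS and above 0 with it.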

How the data were processed

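The authors deposited raw counts of reads for each Ensembl gene, in a separate table for each of 12 libraries (4 groups of 3). Per the submitters' processing notes, the tools were Trimmomatic 0.36, STAR 2.5.2b and, for counting, featureCounts (Subread 1.5.2), with GRCh38 as the build. Annotation release, strand setting and treatment of multi-mapping reads: not given in the sources used here. Libraries held 17.13 to 22.15 M counts, so that 3 counts equal 0.135 to 0.175 CPM. No replicates were identical: chi-square per degree of freedom between replicates of a group was 8.05 to 26.2. Symbols were matched for 40907 of 57500 gene IDs, which held 99.1% of counts.

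Counts were filtered (filterByExpr), scaled by TMM and fitted in edgeR 4.0.16 (R 4.3.3) with robust quasi-likelihood on 4 group means over all 12 libraries, with 8 residual degrees of freedom and a common biological coefficient of variation of 10.7%. Tests were 2-sided, with Benjamini-Hochberg adjustment over the 16402 genes tested in each of 3 comparisons, and adjusted p under 0.05 was a call. A log2 change is 10% minus 5% CO2, ± its standard error. Shares of counts were compared by an exact permutation test. CPM of genes in the text were computed from the tested counts of each library, scaled by its TMM factor. Only the CPM that equals 3 counts was computed from the library totals. The code was tested on simulated data. Alternatives used DESeq2 1.42.0, limma 3.58.1 (voom), other scalings and filters, a loess correction for exon GC content, a replicate block, and fits that left out 1 library.

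The members and lists were chosen with earlier results of these data known. Genes named are the 12 largest rises and 12 largest falls with at least 5 CPM, no overlap of groups and a call in each of 12 fits that left out 1 library, up to 4 called genes per list, the mRNAs of mitochondrial DNA, fixed cytokine and chaperone genes, the 10 most abundant called genes and the 5 smallest interaction p. CHORDC1, HSPA6, CA2, PHGDH, TRAC and members listed without values were added after their values were seen. IL10 was too low to be tested. Ribosomal RNA genes of mitochondrial DNA were not analysed here. Intervals for single genes use the t distribution with 8 degrees of freedom and cover the spread between libraries. A few named members are not reported here.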

Additional observations from a re-analysis of the deposited data

Results flagged for a closer look

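In 4 genes the response to 10% CO2 differed between cells with and without LPS by the test of the difference itself (edgeR's interaction term, adjusted p under 0.05). The log2 change with LPS minus that without it was 1.17 ± 0.14 for HIVEP2 (adjusted p = 0.00255), 1.33 ± 0.22 for PDGFA (0.046), 1.17 ± 0.19 for CD44 (0.046) and 0.92 ± 0.15 for STARD4 (0.046). In each gene all 3 libraries at 10% CO2 lay above all 3 at 5% CO2 with LPS, and below them without LPS. HIVEP2 was called in every alternative run. It was the single interaction called with RLE factors, the stricter count filter or limma-voom, where the adjusted p of PDGFA, CD44 and STARD4 was 0.0507, 0.0625 and 0.0841 to 0.164, in that order of settings. With the GC correction the interactions of CD44 and STARD4 were also lost (adjusted p = 0.114 each), and PDGFA passed (0.0397). With library totals PDGFA (0.0643) and STARD4 (0.0983) were lost, and CD44 passed (0.0265).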

How the results depend on the processing

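No named called gene changed sign under the alternatives run, but the balance of calls did: 703 higher and 732 lower became 949 and 827 with the GC correction, 1005 and 943 in DESeq2, 718 and 628 in limma-voom, and 740 and 709 with RLE factors. The balance shifted the other way, to 505 and 970 with library totals and to 700 and 989 with no count filter. Of 124 named genes called with LPS, 124 kept their call with RLE factors, the stricter filter or DESeq2, 121 in limma-voom, 111 with the GC correction, 110 with library totals or with no count filter, 104 with only the 6 LPS libraries, and 66 to 121 when 1 library was left out. Calls with LPS (1435) numbered 1346 to 1948 over scalings, filters and tools. With 1 library left out they ranged from 271 to 1804, those higher from 150 to 869 and those lower from 121 to 943; these fits had 1 library fewer. Resting calls (240) were 572 with no filter, 669 in DESeq2, 886 with the GC correction, and 0 to 511 with 1 library left out. Interaction calls (4) were 1 with RLE, the stricter filter or limma-voom, 2 with library totals, 6 with the GC correction, 108 with no filter, 55 in DESeq2, and 1 to 37 with 1 library left out. The cause of these shifts was not tested. The share of mRNAs of mitochondrial DNA differed by 1.03 to 1.96 points and that of chaperones by 0.327 to 0.556 points over all alternatives. At 17.13 to 22.15 M counts, genes under 0.135 CPM had fewer than 3 counts. The count filter decided which genes were compared, and it also left out genes with more counts. An example is PTGES, with at most 30 counts in any of the 6 LPS libraries.

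The replicate numbers showed no consistent pairing of the LPS libraries. Deviations of same-numbered 5%-LPS and 10%-LPS libraries correlated at 0.457, -0.154 and -0.0484, for replicates 1, 2 and 3. The value of replicate 1 was the highest of all pairs. However, 5%-LPS replicates 2 and 3 correlated best with 10%-LPS replicates 3 and 2 (0.283 and 0.419). Resting libraries were not compared in this way, and these mixed values do not settle whether a number marks a shared culture. With the number as a block, 2121 genes were called with LPS (1133 lower), 699 at rest and 11 for the interaction, and 1694 with only the 6 LPS libraries in that fit. Block and GC correction together gave 3036 (1515 higher and 1521 lower), 2042 and 31. Of the 124 named genes, 1 lost its call under the block, HSPA8 (adjusted p = 0.0546), and 5 with block and GC correction together (PSMA6, HSP90AA1, HSPA8, HNRNPU and MT-TY; adjusted p 0.0559 to 0.0753). With the block and only the 6 LPS libraries 28 lost it (0.0513 to 0.179), among them 9 that were stable when 1 library was left out: AHSA1, IL12B, GCH1, SLAMF7, CRIM1, MEOX2, ST6GAL1, MT-TY and B3GNT7.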

Other observations

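Zinc finger genes (ZNF symbols) on chromosome 19, tested in 244 cases, had a median log2 change of 0.16 with LPS and -0.03 without it, with 4 called higher and 3 called lower with LPS. Genes with histone symbols, tested in 30 cases, had a median of 0.16 with LPS and 0.01 without it, with 1 called higher. Both sets were formed after the data had been seen, and no explanation was tested.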
